A study of Rattus norvegicus with 4 samples.

Results

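Ratios of 6 genes linked to leukocytes or to the interferon response, Bst2, Cd74, Coro1a, Tlr4, Cma1 and Fcgr2b, were followed in the livers of rats given ciprofibrate. They were picked by name after ratios of the same arrays had been seen, and every spot that the probe annotation assigns to one of these symbols was taken. That gave 11 spots of 6 cDNA clones, for 6 of the 3102 genes named on the array, and all 11 spots carried a measured ratio on all 4 arrays. Each array held total liver RNA of 1 of 4 female Fischer rats dosed with ciprofibrate at 50 mg per kg of body weight per day for 60 days, against one pool of total liver RNA from 5 control rats of which nothing further is stated. Ciprofibrate belongs to the fibrates, which lower blood lipids by way of the nuclear receptor PPARα and make peroxisomes multiply in rodent liver. The age of the animals is not given in the sources used here, and the rats behind the 4 arrays are not numbered, so the arrays were read as 4 different animals. Replicate numbers only name the arrays.

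Liver is mostly hepatocytes by mass, but its sinusoids also hold resident macrophages (Kupffer cells), endothelial cells, lymphocytes and other leukocytes. Leukocytes sense microbial products through Toll-like receptors, take up antibody-coated particles through Fc receptors and present peptides on MHC class II molecules. Interferons are cytokines that switch on a set of antiviral genes in most cell types through Janus kinases and STAT factors. In whole-liver RNA, fewer cells of a type and less RNA per cell cannot be told apart. The table holds ratios only, so no gene has a level here and the presence of any cell type could not be checked by its markers.

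A value below is the log2 ratio of the treated liver, named channel 1 in the labels, to the control pool, named channel 2, once the median of each array had been set to 0. The labels give no dyes. If the treated livers carried the same dye on every array, a dye effect on a clone could not be told apart from the treatment. A positive ratio is read as likely higher in the treated livers, from the order of the channels and from clones of textbook PPARα targets. Of 11 such clones with 1 gene symbol, 7 had a positive and 4 a negative mean, and the 3 clones of the Cyp4a and Acot families whose listing holds more than 1 symbol entry were all positive. This is a majority, not a settled direction, and if it were wrong every sign below would turn. Ratios also went with the place of the spot. In a layout read from the values, the median of the left column of printing blocks exceeded that of the right column by 0.20, 0.12, 0.36 and 0.53 (log2) on replicates 1 to 4. A smooth surface over the spot positions was therefore subtracted from each array as an alternative, and values called "without the surface" are those after this subtraction. Each array had 6499 to 6517 spots with a measured ratio. Replicate 2 stood apart: over all tested clones it correlated with the other arrays at 0.47 to 0.53 (Pearson), and the others among themselves at 0.68 to 0.76.

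The 6 genes did not share one sign. Bst2, Coro1a, Fcgr2b and Cd74 had negative clone ratios on all 4 arrays, and Tlr4 and Cma1 positive ones on all 4. Ordered by mean log2 ratio they ran from Bst2 at -1.63 ± 0.14 (SD, n = 4) through Coro1a at -0.73 ± 0.17, Fcgr2b at -0.40 ± 0.18, Cd74 at -0.35 ± 0.07 and Tlr4 at 0.28 ± 0.20 to Cma1 at 0.69 ± 0.11. The ranges of the 4 arrays overlapped between Coro1a and Fcgr2b, between Fcgr2b and Cd74 and between Tlr4 and Cma1, although Coro1a was below Fcgr2b and Tlr4 below Cma1 on each single array. Fcgr2b and Cd74 differed by 0.05 ± 0.21, less than the spread. The order changed without the surface, with Cd74 below Coro1a (-0.62 and -0.53) and Tlr4 above Cma1 (0.41 and 0.38). Because these ratios were used to choose the genes, they are a description and were not tested. Without replicate 2 the means were -1.67 for Bst2, -0.76 for Coro1a, -0.43 for Fcgr2b, -0.38 for Cd74, 0.18 for Tlr4 and 0.70 for Cma1. Over the 4704 clones with a value on every array, the middle of the distribution lay at -0.01, and the quartiles at -0.27 and 0.21.

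**Figure D1:**
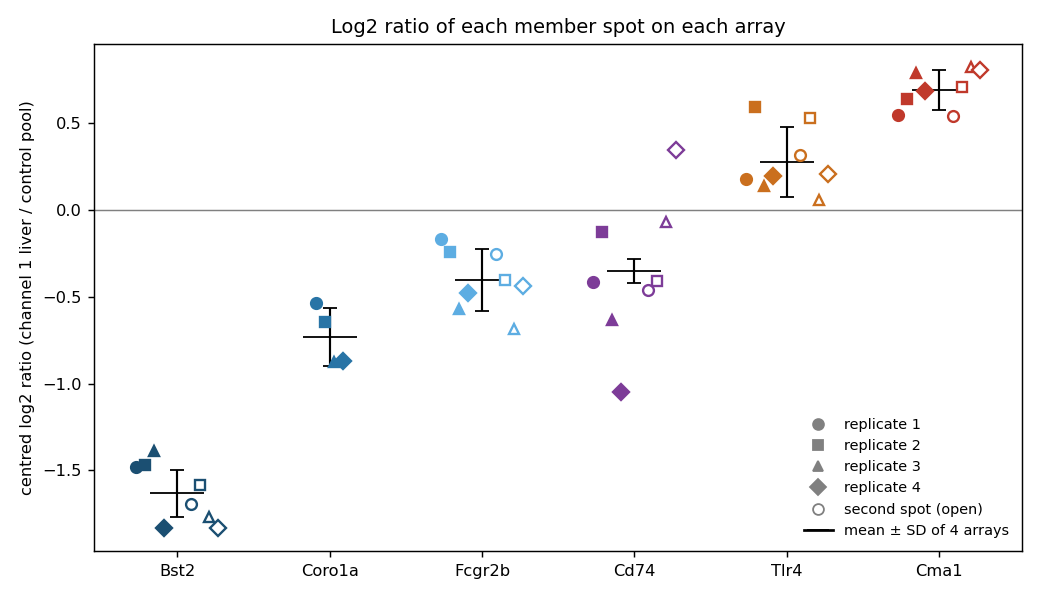
Centred log2 ratio (vertical axis) of every spot of the 6 genes on the 4 arrays; filled symbols are the first spot and open symbols the second, the symbol shape is the replicate, and the black bar is the mean ± SD of the clone over 4 arrays. Bst2 lies between -1.83 and -1.39 at every spot, Cma1 between 0.54 and 0.82, and the spots of Cd74 run from -1.05 to 0.35.

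Bst2, also called tetherin, is an interferon-induced membrane protein that holds budding enveloped viruses on the cell surface. Its clone ratio was -1.59, -1.53, -1.58 and -1.83 (log2) on replicates 1 to 4. These 4 values lie close together, with replicate 4 the lowest, and the mean is a 3.10-fold difference. Only 20 of the 4704 clones had a lower mean, while on the single arrays 34, 58, 58 and 37 clones were lower. The first spot read -1.48, -1.47, -1.39 and -1.83, and the second -1.69, -1.59, -1.77 and -1.83. Both spots were therefore low on every array, with the widest gap between them, 0.38, on replicate 3. With the position surface subtracted the clone stood at -1.55 ± 0.13 (SD, n = 4), a 2.93-fold difference.

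The stretch before the Bst2 start is shown because interferon acts on such genes through a short DNA element, the interferon-stimulated response element. RefSeq's GRCr8 assembly places these 250 bases at chr16:18254968-18255217 on the minus strand. They are printed 5′ to 3′, with matches to the element's core, searched as GAAA, any 2 bases and GAAA on both strands, in capitals.
Bst2: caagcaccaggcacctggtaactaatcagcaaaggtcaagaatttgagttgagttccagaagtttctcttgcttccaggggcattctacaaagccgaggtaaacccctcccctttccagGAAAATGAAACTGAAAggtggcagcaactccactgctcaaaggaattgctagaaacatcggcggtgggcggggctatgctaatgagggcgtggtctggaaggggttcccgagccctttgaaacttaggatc
The capitals hold 2 overlapping matches, from base 131 to base 116 before the start. Of the 6 genes 5 had a promoter in the table, and the core was found in that of Bst2. The windows of Cd74 and Coro1a overlap the annotated gene itself and are not all upstream sequence. In the Bst2 stretch a STAT site, searched as TTCNNNGAA, matched 1 time and overlaps the first of them. Of 33469 rat promoters cut to the same length, 3.41% held the core of the response element and 7.67% the STAT site.

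Of 9 other interferon-induced genes tested, 6 had a promoter in the RefSeq table (GRCr8), and all 6 held the core, which is shown with up to 7 bases on either side, on the strand of the match, to set it beside that of Bst2.
Bst2: tttccagGAAAATGAAACTGAAAggtggca
Oas1a: ctctcggGAAATGGAAACTGAAAatcttgt
Ifi44l, nearer match: cagtgagGAAAATGAAAgtaaagg
Ifi44l, farther match: aggatgaGAAAAAGAAAgccaagc
Ifitm3: aattcagGAAAAGGAAActtctga
Rsad2: gttttctGAAAATGAAAgttgaac
Gbp2: agacaatGAAAGTGAAActaaaaa
Lgals3bp: ttttctgGAAATCGAAActagact
Oas1a, like Bst2, had 2 overlapping matches. Genes with this core in their promoter had ratios of both signs, from -1.63 for Bst2 to 0.49 for Oas1a. A match describes the letters only and is no evidence of binding.

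The ratios of the 9 other interferon-induced genes did not follow that of Bst2. By limma over all clones, with an adjusted p under 0.05 as the threshold, 2 of the 9 were positive and none negative, where 13.6% of all 4704 clones were called positive and 15.0% negative. Oas1a, which makes the 2′-5′ oligoadenylates that activate RNase L, was at 0.25, 0.67, 0.45 and 0.59 on replicates 1 to 4, a mean of 0.49 ± 0.19 (SD, n = 4, limma adjusted p = 0.0172). Ifi44l was at 0.20, 0.46, 0.34 and 0.41, a mean of 0.35 ± 0.11 (limma adjusted p = 0.0334). Neither gene's range overlapped that of Bst2. Bst2 was chosen with these ratios known, and only 20 of the 4704 clones had a lower mean. The lack of overlap is therefore no result about interferon-induced genes. Both calls ended without the position surface, where Oas1a was at 0.20 ± 0.18 and Ifi44l at 0.22 ± 0.12, and without replicate 3 or 4, and that of Ifi44l also without replicate 1. The 7 not called ran from Dhx58, an RNA helicase of the RIG-I family, at -0.36 to Mx2, a dynamin-like antiviral GTPase, at 0.49, with Mx2 at 1.25, -0.56, 0.63 and 0.64 on the 4 arrays. Ifitm3, which blocks viral entry from endosomes, was at 0.32 ± 0.18 and became a positive call without the surface (0.39 ± 0.19, adjusted p = 0.0430). The median of the 9 was 0.29, beside -0.01 over all clones. Without the surface the median of the 9 was 0.12. Of 4 genes of interferon signalling, 1 was positive, the transcription factor Irf8 at 0.37 ± 0.16 (limma adjusted p = 0.0341). Its call too ended without the surface (0.31, adjusted p = 0.0521) and without replicate 1, 3 or 4.

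Cd74 is the invariant chain, which fills the groove of MHC class II molecules and steers them to endosomes. Its clone ratio was -0.44, -0.27, -0.35 and -0.35 (log2) on replicates 1 to 4, a 1.28-fold difference, and looks tight. The 2 spots behind it were not. The first read -0.41, -0.13, -0.63 and -1.05, and the second -0.46, -0.41, -0.07 and 0.35. On replicate 4 the spots differed by 1.40 and had opposite signs, and only 10 of the 1618 clones with 2 measured spots on that array differed by more. On replicate 3 they differed by 0.56, with 46 of 1617 clones above that. The median gap between spots of a clone was 0.08, 0.08, 0.08 and 0.09 on the 4 arrays. The SD of 0.07 over arrays thus comes from averages of spots that disagreed, and the means of the single spots were -0.56 ± 0.39 and -0.15 ± 0.37. Without the surface the clone mean was lower, at -0.62 ± 0.13 (SD, n = 4), with all 8 spot values negative. The spots still disagreed, at -0.91 and -0.37 on replicate 3 and -1.44 and -0.11 on replicate 4. Their means were then -0.80 ± 0.49 and -0.43 ± 0.25.

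**Figure D2:**
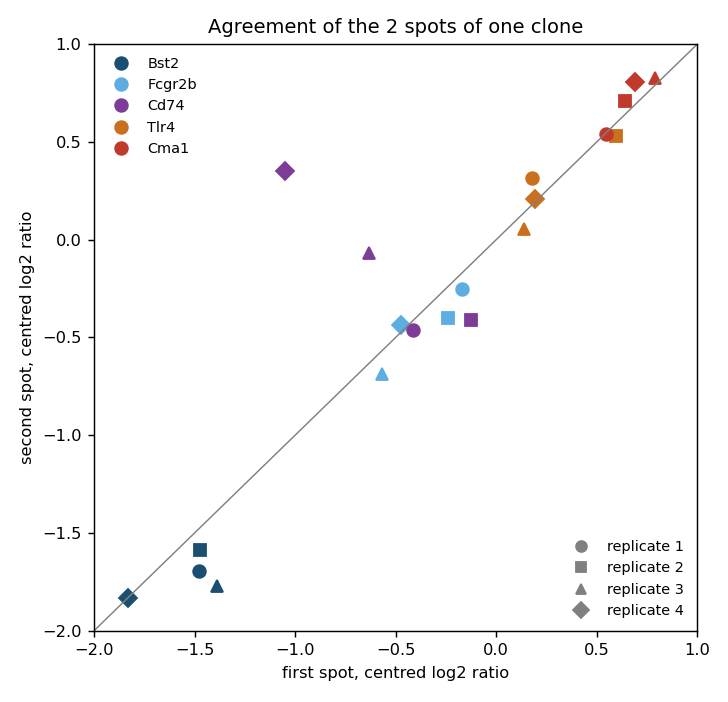
Centred log2 ratio of the second spot (vertical axis) against the first (horizontal axis) for the 5 genes with 2 spots, with 1 point per array; the grey line marks equal values. Cd74 on replicates 3 and 4 lies far above the line, with gaps of 0.56 and 1.40, and the widest gap of any other point is 0.38.

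The other genes of MHC class II presentation had ratios on both sides of 0. Of 9 genes, 1 was positive, none negative and 8 were not called, with a median of -0.11. The positive one was Ctss, the endosomal protease cathepsin S that degrades the invariant chain, at 0.44 ± 0.15 (SD, n = 4, limma adjusted p = 0.0201). It was at 0.10 without the surface, and its call also ended without replicate 3 or 4. RT1-Ba, an MHC class II alpha chain, was at -0.21 ± 0.26, and RT1-DMa and RT1-DMb, the chains of the peptide-loading molecule DM, at -0.11 ± 0.18 and 0.21 ± 0.16. Without the surface RT1-Ba and RT1-DMa became negative calls (-0.50 ± 0.21 and -0.36 ± 0.13, limma adjusted p = 0.0274 and 0.0360), with RT1-DMb at 0.31 ± 0.16. Of 5 clones of MHC class I presentation, the 1 called was Canx, the chaperone calnexin, at 0.45 ± 0.21 (limma adjusted p = 0.0243). Canx was at 0.23 without the surface, and its call also ended without replicate 3 or 4. The 2 clones of B2m, the class I light chain, had means of opposite sign, 0.26 ± 0.39 and -0.10 ± 0.43.

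Fcgr2b is the inhibitory receptor for IgG, found on B cells and myeloid cells and, in liver, on sinusoidal endothelium. Its clone ratio was -0.21, -0.32, -0.63 and -0.46 (log2) on replicates 1 to 4, a 1.32-fold difference. Both spots were negative on every array, from -0.17 to -0.57 and from -0.25 to -0.69. Tlr4, the receptor for bacterial lipopolysaccharide, was at 0.25, 0.56, 0.10 and 0.20, a 1.21-fold difference. Replicate 2 was the highest array at both of its spots (0.60 and 0.53), and without that array the mean of Tlr4 was 0.18. Without the surface Fcgr2b stood at -0.28 ± 0.14 and Tlr4 at 0.41 ± 0.20 (SD, n = 4). With the median of each printing block subtracted they stood at -0.23 and 0.46. Without the surface the mean of Tlr4 was at percentile 99.4 of all clones, against 81.3 with the surface kept.

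In the inferred layout each Tlr4 spot lies 1 row from an Fcgr2b spot in the same slide column, at 2 places of the same printing block. The ratio of Tlr4 exceeded that of its Fcgr2b neighbour on all 4 arrays at both places. The gaps were 0.35, 0.84, 0.71 and 0.67 (log2) at the first place and 0.57, 0.93, 0.74 and 0.65 at the second. Averaged over the places, Tlr4 was above Fcgr2b by 0.68 ± 0.18 (SD, n = 4), a 1.60-fold difference between the ratios. This is a difference of ratios, not of levels. Both genes were chosen with these ratios known, and the places hold spots of the same clones. Every Tlr4 spot was positive and every Fcgr2b spot negative on all 4 arrays, so the sign of the gap was given beforehand.

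Of 6 other genes of Toll-like receptor signalling, 1 was positive and 1 negative. Tlr3, the endosomal receptor for double-stranded RNA, was at 0.32 ± 0.14 (SD, n = 4, limma adjusted p = 0.0499), and its call ended without the surface and without each single array. Map3k7, the kinase TAK1 downstream of the receptors, was at -0.76 ± 0.42 (limma adjusted p = 0.0146) and held without the surface at -0.87 ± 0.38, though not without replicate 4 (-0.67, adjusted p = 0.0557). Of 4 other genes of Fc receptors and their signalling, Fyn, a Src-family kinase, was positive at 0.45 ± 0.11 (limma adjusted p = 0.0166). Fyn was at 0.16 without the surface, and its call also ended without replicate 3 or 4. Of 4 cytokines tested, 3 were called positive, beside 13.6% of all clones. They were Spp1 (osteopontin) at 0.43 ± 0.11, Il1b at 0.41 ± 0.15 and Tnf at 0.35 ± 0.14 (limma adjusted p = 0.0178, 0.0244 and 0.0374). None of these 3 calls held without the surface, nor without replicate 1, 3 or 4.

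Coro1a, an actin-binding coronin of leukocytes, had a single spot. It read -0.54, -0.65, -0.88 and -0.87 (log2) on replicates 1 to 4, a 1.66-fold difference, with replicates 3 and 4 below the other two. Its mean was at percentile 5.4 of all clones. Without the surface it stood at -0.53 ± 0.17 (SD, n = 4). Of 8 clones of other pan-leukocyte genes, 2 were negative and 1 positive. Srgn, the core protein of granule proteoglycans, was at -0.60, -0.95, -0.93 and -1.35, a mean of -0.96 ± 0.31 (limma adjusted p = 0.00473), and held without the surface at -0.88 ± 0.31. Cd52, a small glycoprotein of lymphocytes, was at -0.37, -0.38, -2.31 and -1.16, so its mean of -1.05 ± 0.91 (adjusted p = 0.0352) leaned on replicate 3, and its call ended without the surface and without replicate 1, 3 or 4 (-0.64 without replicate 3). Rac2, a GTPase of the haematopoietic lineage, was positive at 0.51 ± 0.11 (limma adjusted p = 0.0114), with 0.19 and no call without the surface and no call without replicate 3 or 4.

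Cma1, a chymotrypsin-like protease of mast cell granules, had the highest mean of the 6, though not without the surface, where Tlr4 was at 0.41. It was at 0.54, 0.67, 0.81 and 0.75 (log2) on replicates 1 to 4, a 1.62-fold difference, and 26 of the 4704 clones were higher. The 2 spots differed by no more than 0.12 on any array. Both lie in the left printing blocks, to which 50.7% of the tested clones and 95.0% of those called positive belong. Of the clones called negative, 27.6% belong to the left blocks. The spots of Cd74 are in the left blocks too, and those of Bst2, Coro1a, Fcgr2b and Tlr4 in the right ones. Without the surface Cma1 stood at 0.38 ± 0.16 (SD, n = 4) and was positive on every array. Its mean was then at percentile 98.9 of all clones, against 99.4 with the surface kept. The other mast cell markers tested, Hdc, the histamine-forming decarboxylase, at -0.03 ± 0.32, and Mcpt9, a mast cell protease, at -0.19 ± 0.10, were not called (limma adjusted p = 0.870 and 0.169). Hdc read 0.10, -0.52, 0.15 and 0.13 on replicates 1 to 4, and its mean was 0.13 without replicate 2.

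Markers of other leukocytes had ratios of both signs. Of 6 clones of Kupffer cell and macrophage genes, 2 were negative and 1 positive. One clone of Cyba, a subunit of the phagocyte NADPH oxidase, was at -1.27 ± 0.37 (SD, n = 4, limma adjusted p = 0.00286), while a second clone of Cyba was at 0.04 ± 0.49. C1qb and C1qc, chains of the same complement protein, had opposite signs, at -1.23 ± 0.53 and 0.31 ± 0.10 (limma adjusted p = 0.00669 and 0.0442). The negative calls of Cyba and C1qb held without the surface (-1.25 and -1.20) and without each array, whereas C1qc was then at 0.20 and not called, and its call also ended without replicate 1, 3 or 4. Of 2 B cell clones 1 was negative, Ms4a1, the B cell antigen CD20, at -0.37 ± 0.16 (limma adjusted p = 0.0342). Ms4a1 was at 0.01 without the surface, and its call ended without replicate 1, 3 or 4 too. The other, Pou2af1, was at -0.05 ± 0.28 and not called, and at 0.20 without the surface. Of 3 neutrophil clones 1 was positive, S100a8, a calcium-binding protein of neutrophils, at 0.56 ± 0.26 (limma adjusted p = 0.0163). S100a8 was at 0.27 and not called without the surface, and not called without replicate 3 or 4. S100a9, at 0.08 ± 0.23, and Defa5, at 0.01 ± 0.27, were not called. None of 4 T cell and NK cell genes was called. Gzmk, a granzyme, was at -0.36 ± 0.23 (limma adjusted p = 0.0520), and was a negative call without the surface (-0.38 ± 0.14, adjusted p = 0.0328), while Prf1, the pore-forming perforin, was at 0.22 ± 0.05 (adjusted p = 0.105).

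**Figure D3:**
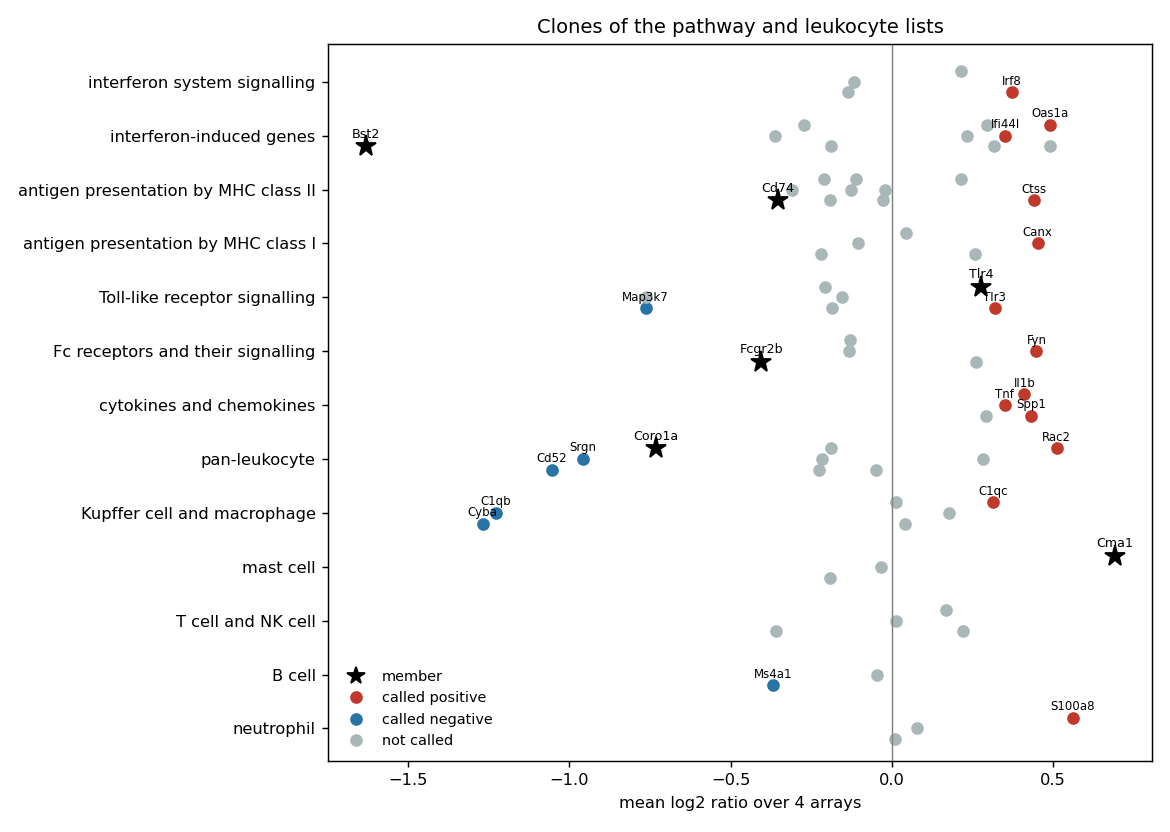
Mean log2 ratio over 4 arrays (horizontal axis) of each tested clone in the pathway and leukocyte lists (rows); stars are the 6 genes, red and blue points are clones called positive and negative by limma at an adjusted p under 0.05, and grey points were not called. Most rows hold points on both sides of 0, and Bst2 lies at -1.63, apart from the other interferon-induced genes, which run from -0.36 to 0.49.

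Over all pathway and leukocyte lists without the 6 genes, 66 clones of 64 genes were tested. Of these 13 were positive, 6 negative and 47 not called, with a median of -0.02. Over all 4704 clones 13.6% were positive and 15.0% negative. With the surface subtracted the background shares were 2.85% positive and 11.3% negative, from 134 and 531 clones. Of the 66 list clones 1 was then positive and 7 were negative. None of the 13 positive calls held, while 4 of the 6 negative ones (Map3k7, Srgn, Cyba and C1qb) did. Over all clones 58 of 638 positive calls and 398 of 706 negative calls held. Of the 13, 12 lay in the left printing blocks. Of the 6, 5 lay in the right ones. Without replicates 1 to 4 in turn, the positive calls that remained numbered 6, 12, 0 and 0, and the negative ones 4, 6, 4 and 3. Every mean kept its sign, and these fits have fewer arrays.

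Some markers of the other liver cells were called too, beside 13.6% positive and 15.0% negative calls over all clones. All 11 clones of hepatocyte genes had negative means, from -0.69 to -0.13, and 2 were called negative, Tf (transferrin) at -0.69 ± 0.20 and Fgb (fibrinogen beta chain) at -0.49 ± 0.31 (SD, n = 4, limma adjusted p = 0.00724 and 0.0325). The call of Fgb ended without the surface and without replicate 1, 3 or 4. Without replicate 2 all 11 means stayed negative, from -0.61 to -0.05. Those of the Alb clones were then -0.21 and -0.14, in place of -0.54 and -0.51. Of 3 erythrocyte clones 2 were negative, Hbb (beta globin) at -0.88 and Epb42 at -0.73, both also without the surface. Of 13 clones of stellate cell and fibroblast genes 4 were positive and 3 negative, of which the calls of none and of 2 held without the surface. Of 3 endothelial clones 1 was positive, Kdr at 0.40 ± 0.21 (limma adjusted p = 0.0343, and 0.14 with no call without the surface). The call of Kdr also ended without replicate 1, 3 or 4. Cdh5, at -0.85 ± 0.85, and Vcam1, at 0.03 ± 0.14, were not called (limma adjusted p = 0.0541 and 0.870). Of 2 cholangiocyte clones 1 was positive, the Spp1 clone counted above with the cytokines, and it was not called without the surface. The other, Anxa4, was at -0.25 ± 0.20 and not called. It became a negative call without the surface (-0.58 ± 0.12, limma adjusted p = 0.00930). The part of cell composition in the ratios of the 6 genes was not tested.

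**Figure D4:**
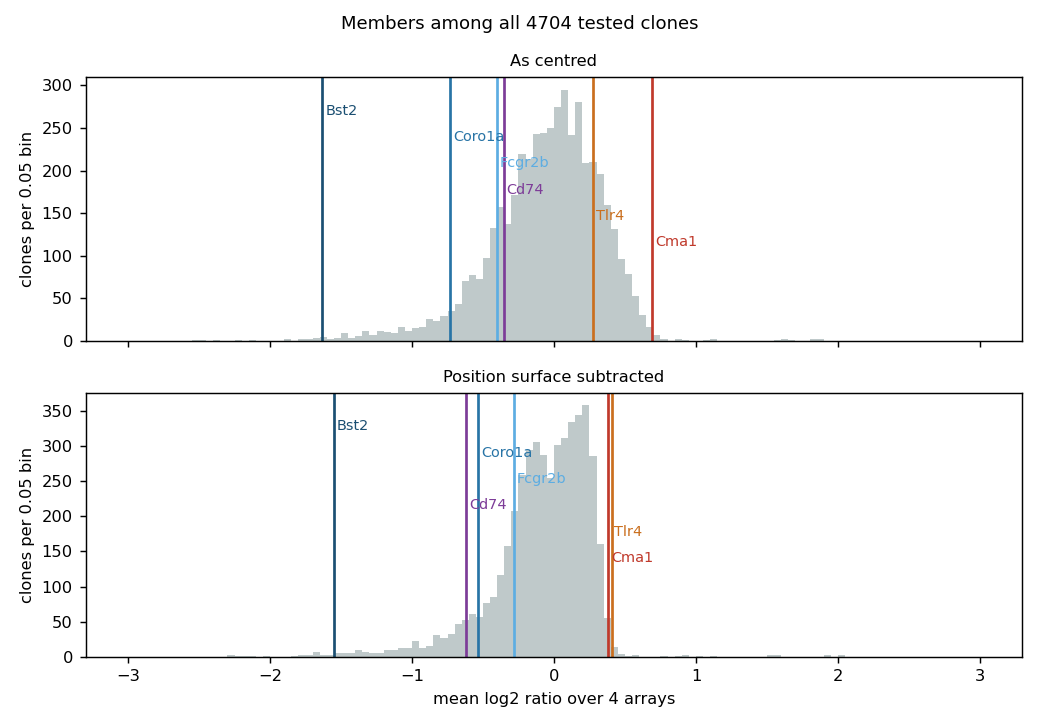
Number of clones per bin of 0.05 (vertical axis) by mean log2 ratio over 4 arrays (horizontal axis), as centred (top) and with the position surface subtracted (bottom); vertical lines mark the 6 genes. Bst2 lies in the low tail in both panels, Cd74 moves from -0.35 to -0.62 and Cma1 from 0.69 to 0.38, and the bottom distribution has a steep upper edge near which Tlr4 and Cma1 lie.

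The nearest profiles among 2706 other clones with 1 gene symbol, by root mean square difference of the 4 log2 ratios, belonged to none of the 6 genes or of the gene lists. The lists are not complete, so a neighbour outside them may still be linked to leukocytes or interferon. Plod1 and Ly6e lay nearest to Tlr4, at 0.02 and 0.04. Sod3 and Tcp1 were nearest to Cma1 (0.04 and 0.04), Cops7a and Alcam to Fcgr2b (0.03 and 0.05), and Bcam and Atp1b3 to Cd74 (0.04 and 0.05). Tmem37 and Sdc1 were nearest to Coro1a, at 0.09 and 0.09. For Bst2 the nearest were Add1 and Exosc10, at 0.25 and 0.26, so few clones lie near it. With 4 arrays such closeness is a description of these values.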

How the data were processed

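For each of 7688 spots the deposited table gives 1 value per array and names no unit. The deposited values are log10 of a ratio: 10 to their power, in thousandths, was whole within 0.02 for all but at most 1 spot per array. How slides were scanned, corrected and normalized is not given in the sources used here. The deposited medians were -0.02, -0.04, -0.03 and -0.05 (log10). The most repeated value of each array, on 1171 to 1189 spots, was read as a missing ratio. Values were turned into log2, averaged over the spots of a listed clone and centred on the array median. Genes were named through an old annotation of the platform, with symbols updated through Entrez numbers (5140 of 5169 probes with 1 symbol; 83 probes had several and 2436 none listed). Unlisted spots stayed rows of their own. Clone sequences were not checked.

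In R 4.3.3, limma 3.58.1 tested each clone with 4 measured ratios, as the mean log2 ratio against 0, two-sided, Benjamini-Hochberg adjusted, checked on simulated data. The pool counts as 1 control sample, so the spread between control rats is left out. The surface was a robust loess (span 0.05, degree 1, 4 iterations) over an inferred layout of 8 blocks of 31 by 31 spots. The rank autocorrelation of spots peaked at lag 31 (0.46 on replicate 3, against 0.43 and 0.41 at the lags beside it). Members and lists were chosen with earlier results of these data known. Named genes are the members, up to 3 called clones per sign and list or the 2 of smallest p. The top markers of other cell types and the 2 clones nearest to each member are named too. Others named in passing (B2m, RT1 genes, Mx2, Dhx58, Ifitm3, the promoter genes, Pou2af1, S100a9, Defa5, Vcam1, Alb) were chosen after their values were seen.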

Additional observations from a re-analysis of the deposited data

Results flagged for a closer look

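On the first spot of Tlr4, replicate 2 read 0.60 (log2), far from the other 3 arrays, which lay between 0.14 and 0.19. It was the only one of the 11 spots of the 6 genes to be flagged, and none of the 25 clones checked was flagged. Not every clone of the lists was checked, and Tlr4 is not singular in this. Replicate 2 read -0.93 for Dhx58, against -0.22 to -0.10 on the other arrays. For Hdc it read -0.52, against 0.10 to 0.15. Chance alone flags about 1 in 20 groups.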

How the results depend on the processing

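No sign of the 6 genes turned under any of the 12 or 13 alternatives run for each, but their order changed with the surface subtracted. Bst2, Fcgr2b and Tlr4 moved by less than 1 SD in all alternatives, although with block medians subtracted Fcgr2b was at -0.23 and Tlr4 at 0.46. With the surface subtracted Cd74 was at -0.62, Coro1a at -0.53 and Cma1 at 0.38, and with block medians subtracted at -0.56, -0.55 and 0.48. With each spot a row, Cd74 was at -0.58 and -0.17, and with the repeated value kept at -0.25. Clones called positive numbered 134 with the surface subtracted, 380 with block medians subtracted, 993 with the repeated value kept, 6 with an unmoderated statistic and 1148 with array weights, and 99 to 872 without each replicate in turn. Clones called negative numbered 462, 4 and 1211 with the last 3 of these settings, and 323 to 895 without each replicate. Among the listed genes, positive calls numbered 1 with the surface subtracted, 20 with each spot a row, 20 with the repeated value kept, 0 with an unmoderated statistic and 21 with array weights, and 0 to 15 without each replicate. Negative calls there numbered 11 with each spot a row, 0 with an unmoderated statistic and 14 with array weights, and 3 to 11 without each replicate. The unmoderated statistic has only the spread of 4 arrays for each clone, and a fit without a replicate has fewer arrays; other causes were not tested. No intensities are in the table, so how far a spot lay above background is unknown here.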
